A study of Mus musculus with 8 samples.

Results

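Itaconate is made from cis-aconitate, an intermediate of the tricarboxylic acid (TCA) cycle, by the enzyme encoded by Acod1, a gene also called Irg1. The genes described here are Acod1 and the cycle and related dehydrogenase genes Cs, Aco1, Idh1, Idh2, Idh3a, Ogdh, Fh1 and Mdh2. They were taken from a list of names and matched by Ensembl ID, which found 9 of 9 among the 46078 genes of the count table. All 9 passed the filter on low counts in each of the 6 comparisons.

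BV-2 cells, an immortalised mouse microglial line, were studied by poly-A RNA sequencing with single-end reads of 100 nt, in 8 libraries that form 4 groups of 2. The study asked how lipopolysaccharide (LPS), a bacterial cell wall component, changes transcripts and how garlic compounds alter that response. All cells were kept without serum for 4 h before treatment. Control cells received solvent and no LPS. The LPS group received 100 ng/mL LPS for 20 h. The AGE+LPS group received aged garlic extract (AGE) at 0.5% v/v from 1 h before the same LPS. The FruArg+LPS group received 3 mM FruArg, a component of AGE formed from glucose and arginine by the Amadori reaction, also from 1 h before LPS. No group received AGE or FruArg without LPS, so their effect on resting cells was not measured. A single cell line was used, and the labels do not say whether the 2 libraries of a group came from separate cultures. The labels place every replicate 1 in lane 3 and every replicate 2 in lane 6, so replicate and lane cannot be told apart.

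Total counts were 2707500 and 8995052 in Control (replicates 1 and 2), 8720784 and 12069807 in LPS, 6795464 and 6669072 in AGE+LPS, and 4692715 and 5822113 in FruArg+LPS. Control replicate 1 was the shallowest library. FruArg+LPS replicate 1 had the fewest genes with a count, 14607, against 16341 to 18728 in the others. Levels are given as TMM CPM, the usual CPM scale of counts over library size, with library sizes adjusted by edgeR's trimmed mean of M values (TMM). A floor of 3 counts corresponds to 0.276 to 0.934 TMM CPM, depending on the library, and covers counting error only.

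The microglial label was checked against 12 microglia and macrophage markers, whose summed level was 4012 and 4751 TMM CPM in Control, 4193 and 4710 in LPS, 4247 and 4902 in AGE+LPS, and 5461 and 5505 in FruArg+LPS. Adgre1 was the most abundant of them in the LPS-treated groups, at 1552 to 2292 TMM CPM. The homeostatic microglial markers were low: Tmem119 ranged from 0 to 1.38, Cx3cr1 from 0 to 4.03 and P2ry12 from 0.229 to 9.27 TMM CPM. Summed levels of other cell lists ranged from 0 to 1.28 TMM CPM for 4 astrocyte markers, 0 to 1.87 for 4 neuronal markers and 0.570 to 1.56 for 4 oligodendrocyte markers. They ranged from 0 to 1.56 for 3 endothelial markers and from 0 to 0.999 for 4 fibroblast markers. The most abundant genes were Slc1a3 of the astrocyte list, Tubb3 of the neuronal list, Pecam1 or Cdh5 of the endothelial list, and Pdgfrb, Col1a1 or Col1a2 of the fibroblast list. The libraries thus carried general macrophage transcripts, while the markers of resting brain microglia were low or at the floor.

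In macrophages and microglia, Toll-like receptor signalling switches on Acod1, and the itaconate that its mitochondrial enzyme makes leaves the cycle at aconitate. Itaconate inhibits succinate dehydrogenase, and it is known for restraining inflammatory gene expression and bacterial growth. The rest of the cycle oxidises citrate through isocitrate, oxoglutarate, succinate, fumarate and malate back to oxaloacetate.

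The comparison of LPS with Control asks what the inflammatory stimulus alone did. Acod1 rose steeply, 3 cycle or mitochondrial dehydrogenase genes fell, and the remaining 5 did not pass the test. A gene is said to rise, fall or change where the adjusted p of edgeR's quasi-likelihood F-test was below 0.05, adjusted over all genes tested by the Benjamini-Hochberg method. Of the 9 genes, 4 passed by edgeR, 1 higher and 3 lower, and DESeq2 also passed 4, beside 3375 of 13959 genes. Among all 12888 genes tested, 30.6% passed, 16.3% higher and 14.3% lower, so the share of the 9 genes that passed lay above the background through the genes that fell, and the count is small. With the replicate number as a block in the edgeR fit, 5 of the 9 passed, 4 of them lower, against a background of 47.8%. Library-size scaling also passed 5, Acod1 higher and Idh2, Idh3a, Fh1 and Mdh2 lower. Scaling by library size in place of TMM moved the median log2 fold change of all genes to -0.40 in this comparison and turned 2106 higher and 1839 lower genes into 1236 higher and 3705 lower. The corresponding medians were 0.15 for AGE+LPS vs LPS, -0.24 for AGE+LPS vs Control, -0.40 for FruArg+LPS vs Control and -0.15 for FruArg+LPS vs AGE+LPS. Fold changes below are therefore relative to the bulk of genes, and in these bulk libraries fewer cells expressing a gene and less RNA of it per cell cannot be told apart.

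Acod1 (ENSMUSG00000022126, GRCm38 chromosome 14, 103046977 to 103056573, + strand) encodes aconitate decarboxylase, which makes itaconate. Its level was 28.0 and 32.2 TMM CPM in Control, 6255 and 8412 in LPS, 4621 and 6093 in AGE+LPS, and 6058 and 8992 in FruArg+LPS. Every LPS-treated library was far above both controls, and both AGE+LPS libraries were below both LPS libraries, while FruArg+LPS overlapped LPS and, narrowly, AGE+LPS. The controls were not at 0, with 90 and 344 counts against 50046 and 91524 after LPS. Acod1 took 0.574% and 0.758% of all counts in the LPS libraries. By mean CPM it ranked 5297 of 46078 genes in Control and 6 in LPS, then 11 in AGE+LPS and 11 in FruArg+LPS. In the edgeR test the log2 fold change of LPS over Control was 7.96 (SE 0.371, n = 2 per group, adjusted p 2.71e-06), the rank 25 increase among the 12888 genes. Within lane 3 the difference of log2(TMM CPM + 1) was 7.75, and within lane 6 it was 7.99.

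**Figure D1:**
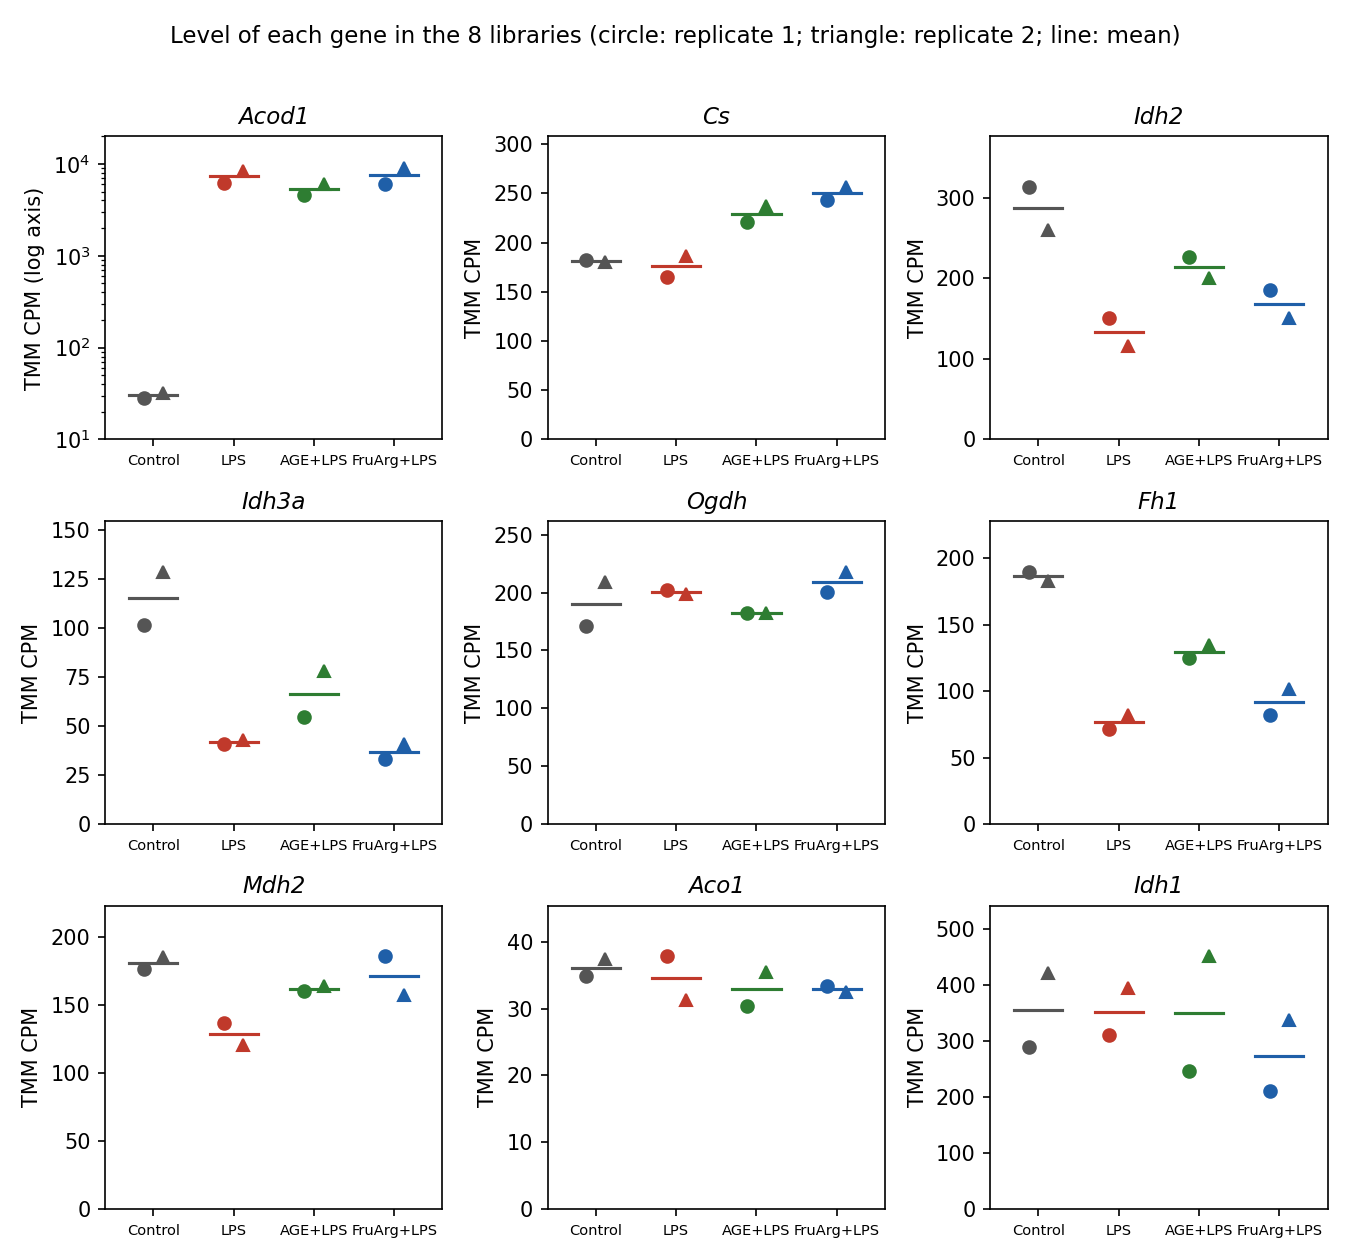
Level of each of the 9 genes in TMM CPM on the vertical axis (log axis for Acod1) in the 4 groups on the horizontal axis, with a circle for replicate 1, a triangle for replicate 2 and a line at the mean. Acod1 sits at 28.0 and 32.2 in Control and at 4621 or more in each LPS-treated library, while Idh2, Idh3a and Fh1 are lower in both LPS libraries than in both controls.

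The first steps of the cycle load and rearrange citrate. Cs (ENSMUSG00000005683, chromosome 10, 128337734 to 128362479) encodes citrate synthase, which joins acetyl-CoA to oxaloacetate. Its level was 182 and 180.0 TMM CPM in Control, 165 and 187 in LPS, 221 and 237 in AGE+LPS, and 243 and 257 in FruArg+LPS. Control and LPS overlapped, and both co-treated groups lay above them without overlap. For LPS over Control the log2 fold change of Cs was -0.01 (SE 0.194, edgeR adjusted p 0.986). The related gene Csl had 108 to 301 counts, and whether reads were shared between the copies was not tested. Aco1 (ENSMUSG00000028405, chromosome 4, 40143081 to 40198338) encodes the cytosolic aconitase that doubles as an iron-sensing RNA-binding protein. It stayed between 30.4 and 37.9 TMM CPM in all 8 libraries, with a log2 fold change of -0.03 for LPS over Control (SE 0.222, edgeR adjusted p 0.929).

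Isocitrate dehydrogenases form the next step and its parallel routes. Idh3a (ENSMUSG00000032279, chromosome 9, 54586334 to 54604661) encodes the catalytic subunit of the NAD-dependent mitochondrial enzyme. Its level was 102 and 129 TMM CPM in Control, 41.1 and 42.8 in LPS, 54.5 and 78.2 in AGE+LPS, and 33.2 and 40.9 in FruArg+LPS. Controls were highest, AGE+LPS came next without overlapping any group, and FruArg+LPS lay just under LPS. Idh3a fell by 1.42 on the log2 scale after LPS (SE 0.211, edgeR adjusted p 0.000993), with differences of log2(TMM CPM + 1) of -1.29 in lane 3 and -1.57 in lane 6. Idh2 (ENSMUSG00000030541, chromosome 7, 80094846 to 80115392) encodes the NADP-dependent mitochondrial enzyme, a source of mitochondrial NADPH. Its level was 313 and 260 TMM CPM in Control, 151 and 116 in LPS, 227 and 201 in AGE+LPS, and 186 and 151 in FruArg+LPS. Controls were highest, AGE+LPS intermediate, and LPS lowest, with FruArg+LPS replicate 2 just above LPS replicate 1. Idh2 fell by 1.07 on the log2 scale (SE 0.222, edgeR adjusted p 0.00588). Without Control replicate 1 the Idh2 log2 fold change was -0.93 with an adjusted p of 0.0529, the highest among its left-out libraries, whereas the alternatives that kept every library ranged from 3.42e-07 to 0.00617. Idh1 (ENSMUSG00000025950, chromosome 1, 65158616 to 65186500) encodes the NADP-dependent enzyme of cytosol and peroxisomes. It ranged from 211 to 452 TMM CPM, and in each group replicate 2 was higher than replicate 1. The groups overlapped, and the log2 fold change for LPS over Control was 0.02 (SE 0.242, edgeR adjusted p 0.952).

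The later steps run from oxoglutarate to oxaloacetate. Ogdh (ENSMUSG00000020456, chromosome 11, 6291633 to 6356642), the first subunit of the oxoglutarate dehydrogenase complex, ranged from 171 to 218 TMM CPM, and Control and LPS overlapped. Its log2 fold change was 0.11 (SE 0.199, edgeR adjusted p 0.711), and reads shared with its copy Ogdhl, which had 67 to 320 counts, were not tested. Fh1 (ENSMUSG00000026526, chromosome 1, 175600374 to 175625635) encodes fumarate hydratase, which turns fumarate into malate. Its level was 190.1 and 183 TMM CPM in Control, 71.7 and 82.4 in LPS, 125 and 135 in AGE+LPS, and 82.3 and 101 in FruArg+LPS. Controls were highest and AGE+LPS intermediate, each clear of all other groups, whereas LPS and FruArg+LPS overlapped. Fh1 fell by 1.24 on the log2 scale after LPS (SE 0.198, edgeR adjusted p 0.00148), with log2 differences of -1.39 in lane 3 and -1.14 in lane 6. Kmo overlaps Fh1 on the opposite strand but shares 0 exon bases with it and had 0 to 61 counts. Mdh2 (ENSMUSG00000019179, chromosome 5, 135778480 to 135790398) encodes mitochondrial malate dehydrogenase, which closes the cycle. Its level was 176 and 185 TMM CPM in Control, 136 and 120.4 in LPS, 159.9 and 164 in AGE+LPS, and 186 and 157 in FruArg+LPS. Both LPS libraries were the lowest of the 8, with no overlap with any other group. The log2 fold change of Mdh2 was -0.46 (SE 0.194, edgeR adjusted p 0.105) and did not pass. With the replicate block it was -0.46 (SE 0.153, adjusted p 0.0127), within a range of 0.00751 to 0.254 over the alternatives that kept every library.

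Divided by exon length, the levels could be ordered between genes. In Control the order in CPM per kb was Idh1 at 128 ± 33.6 (SD, n = 2), Idh2 at 111 ± 14.7, Fh1 at 55.0 ± 1.48, Mdh2 at 50.7 ± 1.82, Ogdh at 34.8 ± 4.90, Cs at 31.3 ± 0.217, Idh3a at 22.7 ± 3.76, Acod1 at 11.5 ± 1.13 and Aco1 at 8.04 ± 0.409. Idh1 and Idh2 overlapped in their libraries, as did Ogdh and Cs. In LPS, Acod1 led at 2796 ± 582 CPM per kb, followed by Idh1 at 127 ± 21.5, Idh2 at 51.6 ± 9.39, Ogdh at 36.8 ± 0.402, Mdh2 at 36.0 ± 3.17, Cs at 30.4 ± 2.71, Fh1 at 22.7 ± 2.21, Idh3a at 8.28 ± 0.239 and Aco1 at 7.70 ± 1.03. Ogdh overlapped Mdh2 and Idh3a overlapped Aco1, so Idh3a, well above Aco1 per length in Control, was level with it after LPS. Acod1 also led in AGE+LPS, at 2042 ± 397 CPM per kb, and in FruArg+LPS, at 2869 ± 791 CPM per kb, again followed by Idh1 and Idh2. Fh1, above Mdh2, Ogdh and Cs per length in Control, was below these genes in LPS and FruArg+LPS. In AGE+LPS it stood at 38.3 CPM per kb, overlapping Cs at 39.6 CPM per kb.

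A list of 12 further genes of the cycle includes those of succinyl-CoA ligase and succinate dehydrogenase. By edgeR, 0 rose and 3 fell, a share below the 30.6% of all genes in either direction and above the 14.3% lower. At an unadjusted p below 0.05 there were 4, beside 5332 of 12888 genes, and DESeq2 passed 3, beside 3375 of 13959. The median log2 fold change of the 12 genes was -0.38 against 0.02 for all genes tested, and 11 of 12 were negative. The replicate block passed 7, against 47.8% of all genes, and library-size scaling 9, each of them lower, beside 4941 of 12888 genes, 3705 of them lower. Suclg2, the GTP-forming ligase subunit, was at 18.1 and 17.0 TMM CPM in Control, 4.75 and 4.87 in LPS, 11.1 and 11.97 in AGE+LPS, and 4.58 and 3.23 in FruArg+LPS. It fell by 1.82 on the log2 scale (SE 0.295, edgeR adjusted p 0.0016). Suclg1, the shared ligase subunit, was at 88.4 and 99.4 TMM CPM in Control and 48.6 and 55.3 in LPS, and fell by 0.82 (SE 0.203, edgeR adjusted p 0.014). The call for Suclg1 was lost without Control replicate 1 (log2 fold change -0.90, adjusted p 0.0695) and without Control replicate 2 (-0.75, adjusted p 0.166), while alternatives with every library gave 8.07e-05 to 0.0145. Sdhc, a membrane subunit of succinate dehydrogenase named after its values were seen, was at 509 and 551 TMM CPM in Control and 353 and 308 in LPS, and fell by 0.65 (SE 0.204, edgeR adjusted p 0.0391). The Sdhc call was lost without Control replicate 1 (-0.70, adjusted p 0.188), Control replicate 2 (-0.60, adjusted p 0.284) or LPS replicate 2 (-0.54, adjusted p 0.0875), with 0.000532 to 0.0522 over the alternatives with every library.

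The lists of carbon entry and exit are short, and their counts after LPS stand beside 30.6% of all genes passing by edgeR and 47.8% with the block. Of 11 pyruvate entry genes tested, 1 rose and 1 fell, and the block passed 4. Pcx, pyruvate carboxylase, which makes oxaloacetate from pyruvate, was at 17.4 and 14.9 TMM CPM in Control, 59.9 and 50.2 in LPS, 139.8 and 137 in AGE+LPS, and 209.9 and 167 in FruArg+LPS. Control was lowest, followed by LPS, AGE+LPS and FruArg+LPS with no overlap between groups, and for LPS over Control its log2 fold change was 1.82 (SE 0.238, edgeR adjusted p 0.000508). Dlat, the acetyltransferase subunit of pyruvate dehydrogenase, was at 43.9 and 44.4 TMM CPM in Control, 18.6 and 16.5 in LPS, 68.8 and 69.8 in AGE+LPS, and 38.3 and 32.7 in FruArg+LPS. LPS was lowest and AGE+LPS highest, each clear of the other groups, and after LPS Dlat fell by 1.30 on the log2 scale (SE 0.225, edgeR adjusted p 0.00233). Of 11 citrate export and malate shuttle genes, 1 rose and 1 fell, while the block passed 8, 5 higher and 3 lower. Mdh1, cytosolic malate dehydrogenase, was at 445 and 490.5 TMM CPM in Control, 126 and 143 in LPS, 306 and 348 in AGE+LPS, and 240.4 and 211 in FruArg+LPS. The 4 groups did not overlap, and Mdh1 fell by 1.76 on the log2 scale (SE 0.205, edgeR adjusted p 0.000263). Slc25a12, a mitochondrial aspartate-glutamate carrier, was at 124 and 139 TMM CPM in Control and 248 and 261 in LPS, and rose by 0.99 (SE 0.196, edgeR adjusted p 0.00452). Without Control replicate 1 its log2 fold change was 0.91 with an adjusted p of 0.0832, and the alternatives with every library ran from 1.54e-06 to 0.0441. Of 4 glutamine entry genes 1 fell, with 2 by the block. It was the glutamine transporter gene Slc1a5, at 107 and 103 TMM CPM in Control and 61.1 and 31.9 in LPS (log2 fold change -1.15, SE 0.292, edgeR adjusted p 0.0157).

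**Figure D2:**
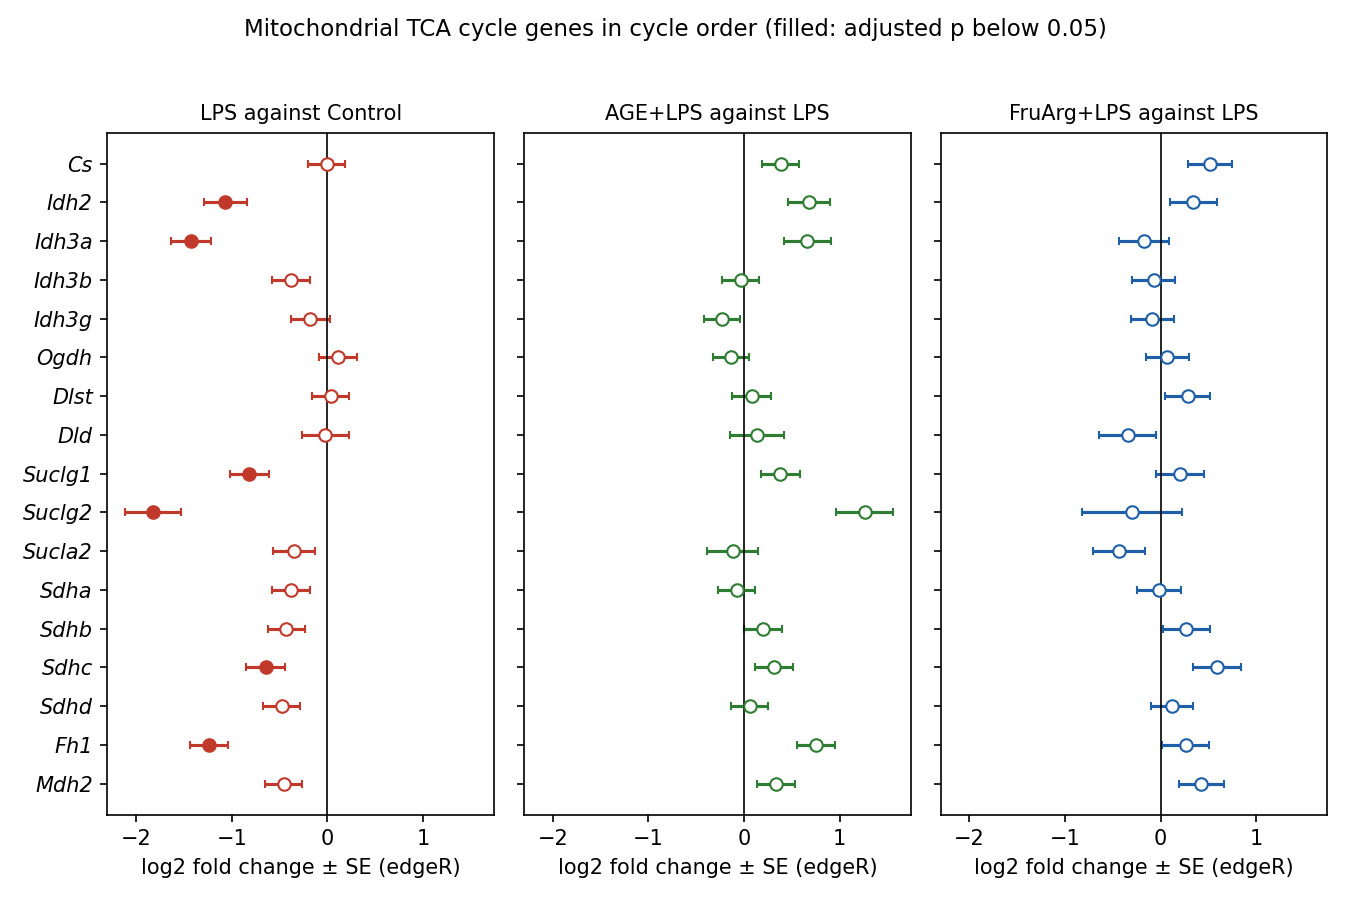
Log2 fold change (horizontal axis) with SE bars of mitochondrial cycle genes in cycle order (vertical axis) in LPS vs Control, AGE+LPS vs LPS and FruArg+LPS vs LPS, by edgeR, filled where the adjusted p was below 0.05. Filled points appear only in LPS vs Control, at Idh2, Idh3a, Fh1, Suclg1, Suclg2 and Sdhc.

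Another list holds genes that break down or carry itaconate. Of 4 tested by edgeR, 2 fell after LPS and 0 rose, beside 14.3% of all genes lower and 16.3% higher, and the block passed 3, beside 47.8% in either direction. Abcg2, an efflux pump able to export itaconate, was at 42.6 and 49.4 TMM CPM in Control and 21.9 and 22.7 in LPS, and fell by 1.02 on the log2 scale (SE 0.22, edgeR adjusted p 0.00735). Without Control replicate 2 the Abcg2 value was -0.92 with an adjusted p of 0.0963, against 3.39e-05 to 0.00765 over the alternatives with every library. Slc13a3, a dicarboxylate carrier that can take up itaconate, had 24 and 47 counts in Control but 2 and 1 in LPS, which is at the floor. Summed over libraries that is 71 counts in Control and 3 in LPS, a ratio of Control to LPS of 32.2 after depth scaling, with a 95% exact interval of 10.6 to 160.0 for counting error. The ratio was 55.6 without LPS replicate 1 and 20.4 without LPS replicate 2.

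Of 7 genes tested upstream of Acod1, from the LPS receptor to transcription factors, 5 rose and 1 fell after LPS by edgeR, beside 30.6% of all genes passing, and the block passed 6, beside 47.8%. Library-size scaling passed 4, beside 4941 of 12888 genes. Irf1, a transcription factor of the interferon response, was at 26.8 and 35.5 TMM CPM in Control, 336 and 280.1 in LPS, 162 and 85.6 in AGE+LPS, and 179.7 and 195 in FruArg+LPS. LPS was highest without overlap, and the log2 fold change over Control was 3.32 (SE 0.238, edgeR adjusted p 2.54e-05). The adaptor genes Ticam1 and Myd88 and the receptor partner Ly96, named after their values were seen, rose by 1.63, 0.60 and 1.195 on the log2 scale (edgeR adjusted p 0.00168, 0.0428 and 0.017). The Myd88 call was lost without Control replicate 1 (0.61, adjusted p 0.296) or Control replicate 2 (0.57, adjusted p 0.354), with 0.00241 to 0.503 over the alternatives with every library. The Ly96 call was lost without Control replicate 1 (1.05, adjusted p 0.0662), with 1.94e-05 to 0.0762 over those alternatives. Tfeb, a regulator of lysosomal genes, was at 14.9 and 12.6 TMM CPM in Control and 2.00 and 1.65 in LPS, and fell by 2.87 (SE 0.366, edgeR adjusted p 0.000436).

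Among 4 factors described as itaconate targets, 2 rose after LPS and 0 fell, with 4 passing by the block, beside the same shares of all genes as for the upstream list. Nfkbiz, which encodes the nuclear factor IκBζ, was at 15.9 and 17.9 TMM CPM in Control and 166 and 116 in LPS (log2 fold change 3.08, SE 0.254, edgeR adjusted p 4.97e-05). Atf3, a stress-induced transcription factor, was at 323 and 292 TMM CPM in Control and 1641 and 1446 in LPS (log2 fold change 2.36, SE 0.231, edgeR adjusted p 0.000113). Of 6 iron handling genes, the process that the Aco1 protein also regulates, 2 rose and 1 fell, with 4 by the block, beside 30.6% and 47.8% of all genes. Slc11a2, an iron importer, was at 76.6 and 83.3 TMM CPM in Control and 453 and 425 in LPS, and rose by 2.49 (SE 0.206, edgeR adjusted p 5.03e-05). Fth1, the ferritin heavy chain, was at 2812 and 3346 TMM CPM in Control and 7219 and 7257 in LPS, and rose by 1.27 (SE 0.27, edgeR adjusted p 0.00657). Without Control replicate 1 the Fth1 value was 1.148 with an adjusted p of 0.0528, against 1.56e-08 to 0.0358 over the alternatives with every library. Tfrc, the transferrin receptor, was at 593 and 733 TMM CPM in Control and 243 and 303 in LPS, and fell by 1.24 (SE 0.225, edgeR adjusted p 0.00288). Over the 8 lists outside the 9 genes, 21 of 59 genes tested passed by edgeR, 11 higher and 10 lower, a share near the 30.6% of all genes, and 38 with the block, against 47.8%. The even split depended on the scaling. Library-size scaling passed 34 of these 59, 9 higher and 25 lower, beside 1236 higher and 3705 lower of 12888 genes.

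AGE+LPS against LPS asks what the extract did to the LPS response. The levels of Idh2, Idh3a, Fh1, Cs and Mdh2 were higher in both AGE+LPS libraries than in both LPS libraries. That of Acod1 was lower in both. The share of all genes without overlap between groups was not counted for any comparison, so such orders describe levels only. By edgeR without the block 0 of the 9 genes passed, 3 had an unadjusted p below 0.05, and DESeq2 passed 0. The background was 0.796% of 12317 genes, 98 in all, with 2194 at an unadjusted p below 0.05 and 618 of 12676 passing by DESeq2. Keeping genes with at least 1 count, 1183 of 21850 passed, and the background also rose with each library left out. With the replicate block 6 of the 9 passed, 5 higher and 1 lower, against a background of 40.3%, of which 19.3% of genes were higher and 21% lower, so the excess over the background was on the higher side. The block in a single fit of the 4 groups passed 3, Idh2, Idh3a and Fh1, beside 2347 of 12873 genes, 1086 higher and 1261 lower. The calls thus depend on treating replicate, and so lane, as a block, and pairing by culture is not stated in the labels. On simulated counts with a lane difference and 4-fold changes, larger than those of the 9 genes here, edgeR found 143 of 200 changed genes without the block and 195 with it. Whether the simulated lane difference matches these data was not tested. In LPS vs Control it left 0 of 200 found without the block, whereas the real fit passed 3945 genes. A count of 0 by edgeR without the block does not by itself show that genes were unchanged.

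For Acod1 the log2 fold change of AGE+LPS over LPS was -0.45 (SE 0.282, edgeR adjusted p 0.471), and with the block -0.45 (SE 0.105, adjusted p 0.000234), within 0.000234 to 0.593 over the alternatives with every library. Its log2 difference was -0.44 in lane 3 and -0.47 in lane 6. Leaving out a library moved the Acod1 log2 fold change to between -0.66 (without AGE+LPS replicate 2) and -0.23 (without LPS replicate 2). Fh1 gave 0.75 (SE 0.202, edgeR adjusted p 0.12), and 0.76 with the block (SE 0.103, adjusted p 9.6e-10, range 9.6e-10 to 0.127). Within lanes the Fh1 differences were 0.79 and 0.70. Both Fh1 and Acod1 therefore kept their sign in each lane. Idh2 gave 0.68 (SE 0.221, edgeR adjusted p 0.175), and 0.69 with the block (SE 0.098, adjusted p 3.66e-09, range 3.66e-09 to 0.177), with 0.59 in lane 3 and 0.78 in lane 6. Idh3a gave 0.66 (SE 0.246, edgeR adjusted p 0.228), and 0.65 with the block (SE 0.118, adjusted p 2.29e-06, range 2.29e-06 to 0.301), with 0.40 in lane 3 and 0.85 in lane 6, and 0.39 without AGE+LPS replicate 2. These mitochondrial isocitrate dehydrogenase genes lay between the LPS and Control levels in both AGE+LPS libraries. LPS vs Control and both comparisons of a co-treatment with LPS use the same LPS libraries. A fall after LPS and a higher level with a co-treatment are therefore not independent results. Cs gave 0.38 (SE 0.197, edgeR adjusted p 0.377), and 0.39 with the block (SE 0.097, adjusted p 0.000659, range 0.000659 to 0.641). Mdh2 gave 0.34 (SE 0.196, edgeR adjusted p 0.435), and 0.34 with the block (SE 0.099, adjusted p 0.00347, range 0.00347 to 0.734). Aco1, Idh1 and Ogdh had log2 fold changes of -0.07, -0.01 and -0.14 and passed with neither fit. Aco1 and Idh1 overlapped between the groups, and Ogdh was slightly lower in both AGE+LPS libraries.

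In the other lists Dlat alone rose in AGE+LPS over LPS by edgeR, by 1.99 on the log2 scale (SE 0.219, adjusted p 0.0358), 1 of 58 genes tested, beside 0.796% of all genes. Of these 58 genes 11 had an unadjusted p below 0.05, beside 2194 of 12317 genes. DESeq2 passed 4, Dlat, Pcx, Mdh1 and Irf1, beside 618 of 12676 genes. The block passed 25, 13 higher and 12 lower, a share near the 40.3% of all genes. With the block in a single fit of the 4 groups 14 of 59 passed, beside 2347 of 12873 genes. Pcx stood at 1.33 (SE 0.208, edgeR adjusted p 0.0505, with the block 8.09e-21) and Mdh1 at 1.28 (SE 0.205, edgeR adjusted p 0.0526, with the block 8.04e-22). Both encode enzymes that make or use oxaloacetate. Pcx passed without LPS replicate 1 (1.47, adjusted p 0.0089), AGE+LPS replicate 1 (1.32, adjusted p 0.0178) or AGE+LPS replicate 2 (1.36, adjusted p 0.0104), with 8.09e-21 to 0.0548 over the alternatives with every library. Mdh1 passed without LPS replicate 2 (1.37, adjusted p 0.0208), AGE+LPS replicate 1 (1.37, adjusted p 0.0105) or AGE+LPS replicate 2 (1.19, adjusted p 0.028), with 8.04e-22 to 0.0607 over those alternatives. Suclg2 stood at 1.26 (SE 0.3, edgeR adjusted p 0.0939, with the block 8.97e-06) and Irf1 at -1.31 (SE 0.325, edgeR adjusted p 0.103, with the block 1.16e-21). Irf1 passed without LPS replicate 1 (-1.18, adjusted p 0.0351), LPS replicate 2 (-1.44, adjusted p 0.00374) or AGE+LPS replicate 1 (-1.85, adjusted p 0.00108), with 1.16e-21 to 0.129 over those alternatives. All 7 upstream genes passed with the block, 5 of them lower, with Ly96, Myd88, Ticam1 and Irf1 among these. With the block in a single fit of the 4 groups 4 of these 7 genes passed, each lower, beside 1261 of 12873 genes lower, and Ticam1 was not among them. In the rest of the cycle 0 of 12 passed without the block (1 at an unadjusted p below 0.05, DESeq2 0), and 3 passed with it, Suclg1, Suclg2 and Sdhc, each higher. With the block in a single fit of the 4 groups 1 of 12 passed, Suclg2, beside 1086 of 12873 genes higher.

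FruArg+LPS against LPS asks the same of the single compound. Cs, Idh2 and Mdh2 were higher in both FruArg+LPS libraries than in both LPS libraries. Acod1 and Fh1 overlapped between the groups, and Idh3a was slightly lower. Here too the share of all genes without overlap was not counted. By edgeR 0 of the 9 genes passed, with 1 at an unadjusted p below 0.05 and 0 by DESeq2. The background was 0% of 12071 genes by edgeR, with 1543 at an unadjusted p below 0.05, and DESeq2 passed 209 of 9671. Keeping genes with at least 1 count, 539 of 21303 passed, and the background also rose with each library left out. With the block 1 of 9 passed, against a background of 17.6%, so the share was near the background. That gene was Cs, at 0.52 (SE 0.228, edgeR adjusted p 0.389) without and 0.52 (SE 0.172, adjusted p 0.0264) with the block, in a range of 0.014 to 0.525 over the alternatives with every library, and at 0.56 in lane 3 and 0.46 in lane 6. Mdh2 stood at 0.43 (SE 0.234, edgeR adjusted p 0.448), with 0.44 and 0.38 within the lanes, and passed only with the block in a single fit of the 4 groups, in a range of 0.0452 to 0.694. For Acod1 the log2 fold change was 0.04 (SE 0.312, edgeR adjusted p 0.958), with -0.05 in lane 3 and 0.10 in lane 6. Fh1 stood at 0.26, Idh2 at 0.34, Idh3a at -0.17, Idh1 at -0.36, Ogdh at 0.07 and Aco1 at -0.06. With a library left out Fh1 ranged from 0.095 to 0.408, Idh2 from 0.166 to 0.523 and Idh3a from -0.336 to -0.028. In the same fits Idh1 ranged from -0.744 to -0.053 and Ogdh from 0.001 to 0.133. Of the 58 genes of the other lists tested, 0 passed by edgeR, 10 had an unadjusted p below 0.05, DESeq2 passed 2 and the block 11, near the 17.6% of all genes. Those passing by DESeq2 were Pcx, at 1.78 (SE 0.253, edgeR adjusted p 0.161, with the block 4.91e-12), and the ferritin light chain gene Ftl1, at 1.53 (SE 0.326, edgeR adjusted p 0.197, with the block 1.32e-08). Ftl1 was at 379 and 288 TMM CPM in LPS and 1228 and 687 in FruArg+LPS, with no overlap. Pcx passed without LPS replicate 1 (1.90, adjusted p 0.00894), FruArg+LPS replicate 1 (1.61, adjusted p 0.00635) or FruArg+LPS replicate 2 (1.93, adjusted p 2.13e-05), and ranged from 4.91e-12 to 0.169 over the alternatives with every library. Ftl1 passed without LPS replicate 1 (1.72, adjusted p 0.0347) or FruArg+LPS replicate 2 (1.88, adjusted p 2.96e-05), and ranged from 1.32e-08 to 0.208.

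The co-treated groups were also compared with Control, to see which differences from resting cells were present with each agent. These comparisons share the Control libraries with each other and with LPS vs Control, so their values are given side by side only. In AGE+LPS 2 of 9 genes passed by edgeR, 1 higher and 1 lower, against 19.7% of 12449 genes, 10.5% higher and 9.25% lower, so the share was close to the background. With the block 5 passed, against 38.8%. In FruArg+LPS 4 of 9 passed by edgeR, 1 higher and 3 lower, against 22.4% of 12038 genes, 12.8% higher and 9.59% lower, a share above the background for lower genes. With the block 5 passed, against 34.4%. Library-size scaling changed the all-gene split from 1304 higher and 1152 lower to 923 and 1905 for AGE+LPS, and from 1539 and 1155 to 916 and 2646 for FruArg+LPS.

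Acod1 rose over Control by 7.48 on the log2 scale in AGE+LPS (SE 0.324, edgeR adjusted p 3.26e-06) and by 7.98 in FruArg+LPS (SE 0.355, edgeR adjusted p 2.29e-05), beside 7.96 in LPS. Idh3a fell by 0.79 in AGE+LPS (SE 0.234, edgeR adjusted p 0.0447) and by 1.61 in FruArg+LPS (SE 0.223, edgeR adjusted p 0.00187), beside a log2 fold change of -1.42 in LPS. For AGE+LPS the Idh3a call was lost without Control replicate 1 (-0.93, adjusted p 0.056), Control replicate 2 (-0.61, adjusted p 0.359) or AGE+LPS replicate 1 (-0.55, adjusted p 0.0852), and the alternatives with every library ran from 4.15e-05 to 0.0496. Idh2 stood at -0.40 in AGE+LPS (edgeR adjusted p 0.204, with the block 0.0223, range 0.0223 to 0.371). In FruArg+LPS Idh2 fell by 0.74 (SE 0.207, edgeR adjusted p 0.0363), a call lost without Control replicate 1 (-0.62, adjusted p 0.238) or Control replicate 2 (-0.90, adjusted p 0.0524), with 0.00027 to 0.0353 over the alternatives with every library. Fh1 stood at -0.51 in AGE+LPS (edgeR adjusted p 0.0907, with the block 0.00426, range 0.00426 to 0.201) and fell by 0.995 in FruArg+LPS (SE 0.195, edgeR adjusted p 0.00892). In both co-treated groups the libraries of Idh2, Idh3a and Fh1 lay below both controls.

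Cs stood at 0.36 over Control in AGE+LPS (edgeR adjusted p 0.221, with the block 0.0435, range 0.0435 to 0.73) and at 0.49 in FruArg+LPS (edgeR adjusted p 0.0871, with the block 0.0189, range 0.0103 to 0.722). Its 4 co-treated libraries were above the 2 controls. Idh1 in FruArg+LPS stood at -0.35 (edgeR adjusted p 0.41) and passed without FruArg+LPS replicate 2 (-0.74, adjusted p 0.00994), against 0.0489 to 0.457 over the alternatives with every library. Mdh2, Ogdh and Aco1 had log2 fold changes of -0.14, -0.05 and -0.12 in AGE+LPS and of -0.05, 0.16 and -0.11 in FruArg+LPS, and passed with neither fit. In the rest of the cycle 0 of 12 passed for AGE+LPS by edgeR (4 at an unadjusted p below 0.05, DESeq2 0, block 6) and 2 of 12, both lower, for FruArg+LPS (DESeq2 2, block 4). The latter were Suclg2, at -2.14, and Sucla2, the ATP-forming ligase subunit, at -0.80 (edgeR adjusted p 0.0393). Of all genes 3938 of 12449 had an unadjusted p below 0.05 for AGE+LPS. DESeq2 passed 2146 of 13164 genes for AGE+LPS and 2501 of 13194 for FruArg+LPS. Library-size scaling passed 7 of the 12 in each of these comparisons with Control, each lower, beside 1905 of 12449 and 2646 of 12038 genes lower. The Sucla2 call was lost without Control replicate 1 (-0.96, adjusted p 0.0531) or Control replicate 2 (-0.65, adjusted p 0.317), with 0.000444 to 0.0507 over the alternatives with every library. Over all other lists 17 of 59 passed for AGE+LPS, 11 higher and 6 lower, beside 19.7% of all genes, with 35 by the block, beside 38.8%. Library-size scaling passed 25 of these 59 for AGE+LPS and turned the split to 7 higher and 18 lower, beside 2828 of 12449 genes. For FruArg+LPS 22 of 59 passed, 14 higher and 8 lower, beside 22.4% of all genes, with 31 by the block, beside 34.4%. Here library-size scaling passed 30 of 59, with the split turned to 9 higher and 21 lower, beside 3562 of 12038 genes. Pcx reached log2 fold changes of 3.13 in AGE+LPS (edgeR adjusted p 3.63e-05) and 3.58 in FruArg+LPS (edgeR adjusted p 8.27e-05).

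FruArg+LPS against AGE+LPS tests the difference between the co-treatments directly, although an extract at 0.5% v/v and a compound at 3 mM are not matched doses. By edgeR 0 of the 9 genes passed (1 at an unadjusted p below 0.05, DESeq2 0), against 0% of 11915 genes (668 at an unadjusted p below 0.05, DESeq2 0). With the block 1 of 9 passed, against a background of 3.2%. That was Idh3a, at -0.85 (SE 0.289, edgeR adjusted p 0.837) without and -0.83 (SE 0.191, adjusted p 0.0199) with the block, in a range of 0.0145 to 0.991, and at -0.70 in lane 3 and -0.92 in lane 6. Both FruArg+LPS libraries of Idh3a lay below both AGE+LPS libraries, and the same held for Idh2 and Fh1. How many of all genes lay this way was not counted. Fh1 stood at -0.51 (SE 0.235, edgeR adjusted p 0.837), Idh2 at -0.35, Acod1 at 0.48 (SE 0.297, edgeR adjusted p 0.837), Cs at 0.12 and Ogdh at 0.19. Of the other lists 0 of 58 genes passed by edgeR (5 at an unadjusted p below 0.05, DESeq2 0), and 3 with the block.

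The genes most like Acod1 over the 8 libraries, by Pearson r of log2(TMM CPM + 1) among 10010 genes with a mean of at least 5 CPM, were Tarm1 (0.999), Plk2 (0.998), Saa3 (0.998), Gm13571 (0.996) and Traf1 (0.996). The libraries form a Control cluster and an LPS-treated cluster, so these values describe that split and were not tested. Tarm1, a receptor of myeloid cells, was at 1.25 and 1.498 TMM CPM in Control, 47.2 and 57.4 in LPS, 36.8 and 47.4 in AGE+LPS, and 47.0 and 68.8 in FruArg+LPS. Like Acod1 it had AGE+LPS replicate 1 as its lowest treated value and FruArg+LPS replicate 2 as its highest. By Spearman rank correlation the 5 genes ranked 2, 558, 84, 175 and 1003, whereas with library-size CPM they ranked 1, 3, 2, 4 and 5.

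Kctd12, the nearest gene before Acod1 that passed the count filter, 64340 bases away, also rose after LPS. It was at 37.4 and 30.3 TMM CPM in Control and 143 and 105 in LPS (log2 fold change 1.92, SE 0.241, edgeR adjusted p 0.000393). This log2 fold change was smaller than that of Acod1.

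Promoter windows were available for 8 of the 9 genes, from RefSeq on build GRCm38.p6, and none for Idh3a. The Acod1 stretch is shown because it belongs to the gene with the steepest rise, as chr14:103046762-103046976 on the + strand, 5′ to 3′, with capitals marking matches to a pair of motifs of the NF-κB type, GGNNNTTCC and a longer one, GGG and CC with 5 bases between them.
Acod1 upstream: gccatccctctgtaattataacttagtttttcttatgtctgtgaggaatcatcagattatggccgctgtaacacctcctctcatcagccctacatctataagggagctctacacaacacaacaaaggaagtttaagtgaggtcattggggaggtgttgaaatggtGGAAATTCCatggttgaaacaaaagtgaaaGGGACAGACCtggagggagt
Both strands of the 250 bases before each RefSeq start were searched. Counted from the RefSeq start of Acod1, which lies downstream of the annotated gene start given above, GGAAATTCC began at -85 and GGGACAGACC at -55. The printed stretch ends at the last base before the annotated start. GGNNNTTCC occurred in 15.7% of 32851 windows and in those of Acod1, Cs, Idh1 and Mdh2, and the longer motif, which can overlap it, in 45.8% of windows and in 7 of the 8 genes. TATAAA, the TATA box letters, occurred in 12.4% of windows and among these genes in Acod1 alone, at -28 from the RefSeq start, which is past the annotated start and outside the printed stretch. CACGTG, an E-box, occurred in 6.02% of windows and among these genes in Ogdh alone, which had 6 windows. Idh1 had 2 windows and each other gene 1, so genes with more windows had more chances of a match. None of the 8 genes held TTCNNNGAA (GAS, 7.02% of windows), TGANTCA (AP-1, 6.75%), AAGGTCA (ERR, 4.08%), a GAAA pair with 2 bases between (ISRE, 2.98%) or GCGCA and GCGC with 1 base between (NRF1, 3.74%). A match describes letters in the window and is not a measured binding site.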

How the data were processed

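Poly-A RNA of 8 BV-2 libraries was measured as read counts per gene, which the authors deposited unnormalised. The authors trimmed reads, aligned them to GRCm38 with TopHat2 and counted with featureCounts; versions and strandedness of counting are not given in the sources used here, and the deposited notes name edgeR where the paper names DESeq2. All columns of values were used, and 0 were left out. The 9 genes were found by Ensembl ID, and annotation came from GENCODE M21. The genes and lists were chosen with earlier results of these data known. Tests used edgeR 4.0.16 in R 4.3.3 (filterByExpr, TMM, quasi-likelihood F-test, two-sided, Benjamini-Hochberg over all genes tested), each comparison on its own 4 libraries. SE is the absolute log2 fold change over the square root of F. Named beside the 9 genes were, per list, up to 2 rising and 2 falling genes with the largest change among those passing in LPS vs Control, the 5 genes most like Acod1 and the nearest gene before it, and a few genes that met this rule are not used here; Sdhc, Sucla2, Ticam1, Ly96, Myd88, Ftl1 and the names given for block or DESeq2 calls were added after their values were seen. Replicate number matches lane in the labels. Pairing was checked by correlating replicate differences across 12873 genes, with r from 0.291 (FruArg+LPS with Control) up to 0.679 (AGE+LPS with LPS). Genes are not independent replicates, and lane and culture cannot be told apart, so the replicate block was an alternative. Other alternatives were DESeq2 1.42.0, RLE factors, library-size scaling, at least 1 or at least 10 counts, a single fit of the 4 groups with and without block, a 2-fold rule and each library left out. The fits were tested on simulated data for LPS vs Control and both co-treatments vs LPS. Without a lane difference all fits found nearly every changed gene. The changes put in were 4-fold. With a lane difference edgeR without the block missed some, and in LPS vs Control every changed gene, whereas DESeq2 without a block found most and edgeR with the block nearly all. Levels and figures used Python 3.11.15, pandas 2.3.3 and matplotlib 3.10.9. Library totals ran from 2707500 to 12069807.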

Additional observations from a re-analysis of the deposited data

Results flagged for a closer look

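With replicate number as a block, 1 of the 9 genes and 3 of the 58 genes tested from the other lists differed between FruArg+LPS and AGE+LPS by the test of the difference itself, against 3.2% of all genes. Ftl1 was named after its values were seen. Idh3a was lower with FruArg (log2 fold change -0.83, SE 0.191, edgeR adjusted p 0.0199), as were Suclg2 (-1.58, SE 0.415, adjusted p 0.0395) and Dlat (-0.98, SE 0.191, adjusted p 0.0088). Ftl1 was higher with FruArg (1.08, SE 0.174, adjusted p 0.00237). Without the block the adjusted p was 0.837 for each of these 4 genes. The cause of the difference between the fits was not tested.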

How the results depend on the processing

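Calls and log2 fold changes were recomputed under the alternatives, except Slc13a3 with at least 10 counts in every library, which it does not reach. Levels, orders per length and the Kctd12 value were not recomputed, and the Slc13a3 ratio only with each library left out. The tally of these results covers the 9 genes in every comparison and the genes named by rule in LPS vs Control only. It leaves out the genes named after their values were seen and the other comparisons of the named genes. Their lost and gained calls are given beside their values. In the tally 777 kept direction and side of the threshold or, for the Slc13a3 ratio, stayed in its interval. A further 28 passed in addition, 11 no longer passed and 40 changed sign. The causes were not tested. A left-out library leaves a lone sample that is assumed to vary like the other group. Depth limits genes near the floor, such as Slc13a3. Within-lane differences and the Slc13a3 ratios with a library left out were chosen after seeing the data. The number of the 9 genes passing with the replicate block was 6 for AGE+LPS vs LPS, 1 for FruArg+LPS vs LPS, 5 for AGE+LPS vs Control and 1 for FruArg+LPS vs AGE+LPS. With the block in a single fit of the 4 groups it was 3, 2, 4 and 1, beside 2347, 2478, 3901 and 564 of 12873 genes. For AGE+LPS vs Control it was 1 under the 2-fold rule, beside 1873 of 12449 genes, and 4 with library-size scaling, beside 2828. For FruArg+LPS vs Control it was 2 under the 2-fold rule, beside 2098 of 12038 genes. With the block in a single fit of the 4 groups it was 6 for FruArg+LPS vs Control, beside 5055 of 12873 genes. Calls of the 9 genes lost or gained with a library left out are given beside each gene.

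Log2 fold changes that turned sign were as follows. For LPS vs Control, Cs was 0.015 by DESeq2, 0.031 with at least 1 count, 0.00 with at least 10 counts and -0.093 to 0.091 with a library left out. Aco1 was 0.001 with at least 1 count and -0.17 to 0.11 with a library left out. Idh1 was -0.40 with library-size scaling, -0.014 in a single fit of the 4 groups and -0.22 to 0.30 with a library left out. Ogdh was -0.31 with library-size scaling and -0.025 to 0.247 with a library left out. For AGE+LPS vs LPS, library-size scaling gave 0.078 for Aco1, 0.13 for Idh1 and 0.014 for Ogdh, and leaving out a library gave -0.20 to 0.072 for Aco1 and -0.50 to 0.36 for Idh1. For FruArg+LPS vs LPS, leaving out a library gave -0.28 to 0.31 for Acod1 and -0.19 to 0.064 for Aco1. For AGE+LPS vs Control, Idh1 was 0.015 by DESeq2, 0.004 with at least 1 count and -0.49 to 0.36 with a library left out, and Ogdh was -0.17 to 0.10. For FruArg+LPS vs Control, Ogdh was -0.24 with library-size scaling and Mdh2 -0.16 to 0.057 with a library left out. For FruArg+LPS vs AGE+LPS, library-size scaling gave -0.013 for Cs and -0.056 for Mdh2, and Aco1 was 0.002 with RLE factors and 0.003 in a single fit of the 4 groups with or without block. Leaving out a library there gave -0.11 to 0.11 for Aco1, -0.74 to 0.14 for Idh1 and -0.036 to 0.19 for Mdh2.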
